A study of Rattus norvegicus with 18 samples.

Results

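The comparison described here is between the hypothalamus of rats that gained weight after Roux-en-Y gastric bypass, labelled RYGB-Fail, and the hypothalamus of rats labelled Pair-Fed. Its members are the 3 hypothalamus arrays of each of these groups, 6 of the 18 arrays of the study, chosen by their titles. The other arrays are 3 from the hypothalamus of rats labelled RYGB-Success, which lost weight after the operation, and 9 from subcutaneous abdominal fat of the same groups. In Roux-en-Y gastric bypass the stomach is divided into a small pouch that empties straight into the jejunum, past most of the stomach and the duodenum. Pair-Fed rats received the food amount that the treated rats ate, per the design text, which also calls the samples biological replicates. Strain, sex, age, the time after the operation, and whether the Pair-Fed rats had a sham operation are not given in the sources used here. It is also not given whether a sample is 1 animal or a pool, so p-values measure the spread between these samples.

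The hypothalamus sets food intake and energy use. Neurons of the arcuate nucleus make peptides that raise feeding, such as neuropeptide Y, and peptides that lower it, such as the products of Pomc and Cartpt, in answer to leptin, insulin and ghrelin. Neurons of the lateral hypothalamus make orexin and melanin-concentrating hormone, which promote arousal and feeding, and the paraventricular and supraoptic nuclei make thyrotropin-releasing hormone, oxytocin and vasopressin. Immediate early genes such as Fos and the Egr family are transcribed within minutes of neuronal activity and are used as its readout.

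Values are linear array signals, summed signals of a list cover all its members on the array, and differences are RYGB-Fail minus Pair-Fed in log2 of the signal, with the standard error of the fit. The 6 arrays had median signals of 91.1 to 109 and the 9 hypothalamus arrays correlated pairwise at 0.849 to 0.910. The beta-actin control, which compares signal at the 3' and the 5' end of a transcript and is high where RNA is degraded or copied short, had ratios of 10.1, 179 and 30.5 on the Pair-Fed arrays and 13.1, 13.4 and 18 on the RYGB-Fail arrays. The same ratio of GAPDH was 2.71, 4.78 and 4.37 on the Pair-Fed arrays and 6.22, 2.44 and 2.83 on the RYGB-Fail arrays, highest on the first RYGB-Fail array. The second Pair-Fed array therefore stood apart in the beta-actin control, and counts without it are given with the test below. Summed signals of 12 neuronal markers, which do not tell brain regions apart, were 69204 to 73938 on the Pair-Fed and 62902 to 67969 on the RYGB-Fail arrays, without overlap. Mean log2 signals of the same markers overlapped, at 11.27 to 11.48 on the Pair-Fed and 11.06 to 11.40 on the RYGB-Fail arrays. The hypothalamic peptide gene Pmch was at 2101 or more on each array. Markers of striatum, a region outside the hypothalamus, summed to 16275 to 27276 on the Pair-Fed and 6472 to 28436 on the RYGB-Fail arrays. The share of RNA from other brain regions was not measured. Of the pituitary hormone genes, Gh1, Prl and Fshb were below 52.7, the lowest mean signal tested, on all 6 arrays. The summed signal of the 9 pituitary markers was 202 to 300.3 on the Pair-Fed arrays and 364 to 583 on the RYGB-Fail arrays. The only one bright enough to be tested, Tshb, a thyrotropin subunit, differed by 0.74 ± 0.57 without overlap, and the part of pituitary RNA in the differences below was not tested.

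No probe set passed the test between RYGB-Fail and Pair-Fed after adjustment. Of 18625 probe sets tested with limma and Benjamini-Hochberg adjustment, 0 passed in either direction (0.0%), the lowest adjusted p was 1.00, and 0 passed with limma's array weights. At an unadjusted p under 0.05 there were 445 probe sets (2.39%), 337 higher in RYGB-Fail (1.81%) and 108 lower (0.58%), where 931 would be 5% of those tested. Without the second Pair-Fed array 0 passed, the lowest adjusted p was 0.348, and 383 were higher and 103 lower at an unadjusted p under 0.05. Signals of the 3 RYGB-Fail arrays lay wholly above those of the 3 Pair-Fed arrays for 1083 probe sets (5.81%) and wholly below for 626 (3.36%), together 9.18%. These shares are the background for every count below of genes past an unadjusted 0.05 or without overlap. A difference had a median 95% interval of ± 0.67 log2, or 1.60-fold, which is the precision that 3 arrays a group gave for a typical probe set.

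**Figure D1:**
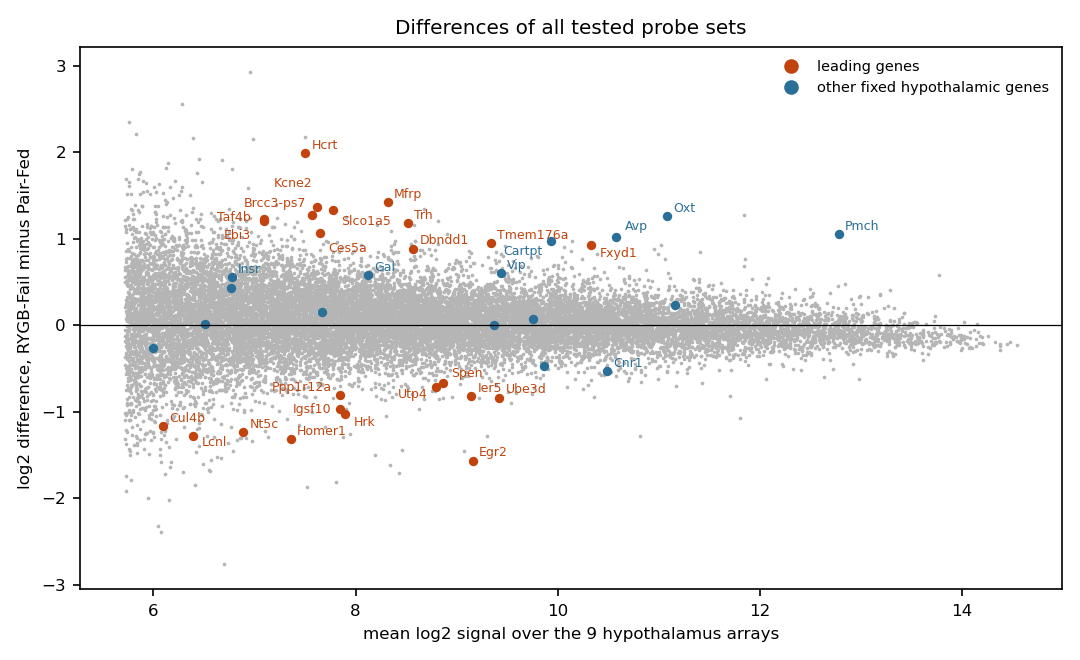
Difference in log2 signal between RYGB-Fail and Pair-Fed (vertical axis) against mean log2 signal over the 9 hypothalamus arrays (horizontal axis) for the 18625 probe sets tested, each a grey point. Coloured points are the leading genes and the fixed hypothalamic genes; none of the differences passed the test, and 343 probe sets differed by at least 1 log2.

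Among the 445 probe sets past an unadjusted 0.05, higher ones outnumbered lower ones, and this split moved with the scaling and with which RYGB-Fail arrays entered the fit. It was 75.7% higher with the deposited scaling, 64.0% after quantile normalization and 39.4% after each array was centred on its median. Without the third RYGB-Fail array it was 51.9% of 416 probe sets, 216 higher and 200 lower, and without the first it was 349 higher and 189 lower. The median difference of all probe sets was 0.03 as deposited and -0.08 after centring, a shift of over 0.1 that centring gave to every difference alike. A list's difference from all probe sets was thus unchanged by centring. Of all probe sets tested, 54.4% were above 0 as deposited, 49.4% after quantile normalization and 38.3% after centring. These shares are the background for counts of list members above or below 0. Differences close to 0 therefore have no settled direction, and a direction is given below only beside its value.

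The genes with the lowest p among the non-overlapping higher genes were led by Mfrp, a membrane frizzled-related protein, and Hcrt, the precursor of the orexins. Mfrp had signals of 205, 223 and 126 on the Pair-Fed arrays and 397, 602 and 462 on the RYGB-Fail arrays. Each RYGB-Fail array was well above all Pair-Fed arrays, and the difference was 1.42 ± 0.32 log2, or 2.68-fold (95% interval 0.73 to 2.11). Kcne2, an accessory subunit of potassium channels, had 136, 121 and 69.3 (Pair-Fed) against 337, 261 and 221 (RYGB-Fail) and a difference of 1.36 ± 0.34. Slco1a5, an organic anion transporter, had 132, 127 and 68.8 (Pair-Fed) against 242, 242 and 316 (RYGB-Fail) and a difference of 1.33 ± 0.34. In both genes the third Pair-Fed array was the lowest of the 6. Fxyd1, phospholemman, which regulates the sodium pump, differed by 0.93 ± 0.24, from signals of 884, 771 and 949 (Pair-Fed) against 1191, 2296 and 1629 (RYGB-Fail). Ebi3, a subunit of the cytokine interleukin-27, differed by 1.21 ± 0.35, and Taf4b, a subunit of the general transcription factor TFIID, by 1.22 ± 0.35. The remaining higher genes named by the rule were Trh, Tmem176a (0.95 ± 0.25), the carboxylesterase gene Ces5a (1.06 ± 0.30), Dbndd1 (0.89 ± 0.25) and Brcc3-ps7 (1.27 ± 0.37), a pseudogene whose signal may include that of its parent gene.

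Egr2, a zinc finger transcription factor of the immediate early genes, led the lower genes with 1085, 1581 and 1377 on the Pair-Fed arrays and 854, 192 and 555 on the RYGB-Fail arrays. All RYGB-Fail arrays lay below all Pair-Fed arrays, with the second the lowest, and the difference was -1.57 ± 0.41 log2 (95% interval -2.45 to -0.68). Leaving out single arrays gave -2.03 to -0.95, with the value nearest 0 without the second RYGB-Fail array. Homer1, a scaffold protein of glutamate synapses with an activity-induced short form, had 199.7, 333 and 461 (Pair-Fed) against 156, 65.1 and 194 (RYGB-Fail) on 1 probe set, a difference of -1.32 ± 0.44. The 4 tested probe sets of Homer1 disagreed in size, from -1.32 to -0.12, and the brightest gave -0.54 ± 0.28. Hrk, a cell death activator of the BH3-only group, had 415, 355 and 349 (Pair-Fed) against 223, 111 and 249 (RYGB-Fail) and differed by -1.02 ± 0.35. Nt5c, a cytosolic nucleotidase, differed by -1.24 ± 0.41, from 186, 174 and 133 (Pair-Fed) against 35.9, 98.7 and 92.9 (RYGB-Fail). Ier5, an immediate early response gene, differed by -0.82 ± 0.29, the ubiquitin ligase gene Ube3d by -0.84 ± 0.26, Utp4, which acts in ribosome assembly, by -0.72 ± 0.26, and the transcriptional repressor Spen by -0.67 ± 0.25. Igsf10 (-0.96 ± 0.33), Lcnl (-1.28 ± 0.49), the cullin Cul4b (-1.16 ± 0.45) and the myosin phosphatase subunit Ppp1r12a (-0.81 ± 0.32) filled the remaining places. The second tested probe set of Cul4b gave 0.05, and those of Ppp1r12a ran from -0.81 to -0.24, so for both the value depends on the probe set.

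Among the peptides that raise feeding, 6 of the 8 members tested had higher signals in RYGB-Fail, with a median difference of 0.69 against 0.03 over all probe sets, and 3 were wholly above Pair-Fed. None passed the test. Hcrt had signals of 69.0, 48.0 and 51.7 on the Pair-Fed arrays and 168, 526 and 121 on the RYGB-Fail arrays. The Pair-Fed arrays were near the lowest signal tested and the RYGB-Fail arrays were 121 or more. The difference was 1.99 ± 0.49 log2 (95% interval 0.93 to 3.05), or 3.97-fold, and 3.82-fold with arrays under the lowest signal tested held at it. Its size rested largely on the second RYGB-Fail array, without which it was 1.36, and single arrays left out gave 1.36 to 2.42. In bulk tissue, a difference in the number of cells of a type and a difference in RNA per cell cannot be told apart.

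Pmch, the precursor of melanin-concentrating hormone and the brightest of these genes, had 4391, 5111 and 2101 on the Pair-Fed arrays and 9183, 8492 and 5419.7 on the RYGB-Fail arrays. The groups did not overlap, with the lowest RYGB-Fail array at 5420 and the highest Pair-Fed array at 5111, and the difference was 1.05 ± 0.34 (95% interval 0.33 to 1.78). Npvf, the precursor of RFamide-related peptides, had 66.7, 55.5 and 70.2 (Pair-Fed) against 123, 106 and 108 (RYGB-Fail) and a difference of 0.81 ± 0.33 without overlap. Gal, the precursor of galanin, had 155, 269.9 and 148 (Pair-Fed) against 324, 335 and 191 (RYGB-Fail), which overlapped, and a difference of 0.58 ± 0.36 (95% interval -0.19 to 1.35). Npy, the neuropeptide Y gene of the arcuate nucleus, had 610.4, 871 and 1280.4 (Pair-Fed) against 985, 658 and 1229.8 (RYGB-Fail) and differed by 0.08 ± 0.33 (95% interval -0.62 to 0.77), an interval that includes changes of about 1.5-fold in either direction. Ghrh, the growth hormone-releasing hormone gene, differed by 0.80 ± 0.57, while the opioid precursors Penk and Pdyn differed by -0.17 and -0.12. Galp and Npw were under the lowest signal tested on all 6 arrays. With each array centred, 5 of 8 members were above 0 and the median was 0.58. The median was 0.39 with a pseudocount of 10% of the mean signal, and with single arrays left out it ran from 0.41, without the second Pair-Fed array, to 0.84, without the third RYGB-Fail array. Summed signals of the list overlapped, at 9248 to 14251 on the Pair-Fed arrays and 12289 to 21003 on the RYGB-Fail arrays.

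**Figure D2:**
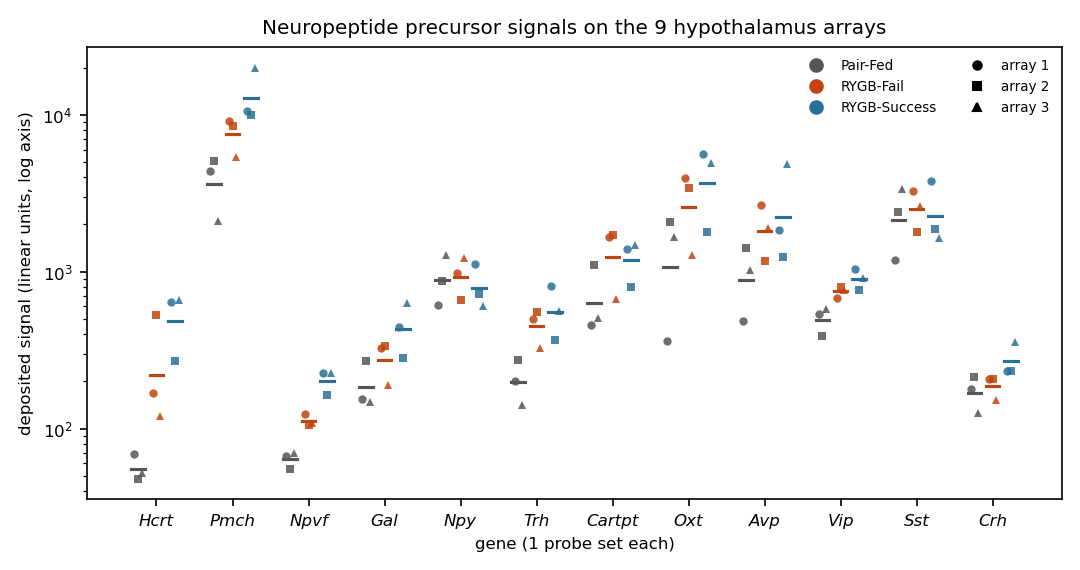
Deposited signal (log axis) of 12 neuropeptide precursor genes on the 9 hypothalamus arrays, with 1 probe set a gene; horizontal bars are the group means of log2 signal and marker shapes are array numbers. Hcrt, Pmch, Npvf, Trh and Vip are without overlap between RYGB-Fail and Pair-Fed, and Npy, Sst and Crh overlap widely.

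The peptides that lower feeding showed 10 of 13 tested members above 0, with a median of 0.21 (9 of 13 and 0.10 with arrays centred), and 1 without overlap. That gene was Trh, the thyrotropin-releasing hormone precursor, with 201, 275 and 141 on the Pair-Fed arrays and 498, 551 and 326 on the RYGB-Fail arrays and a difference of 1.18 ± 0.34 (95% interval 0.44 to 1.91). Cartpt, the CART peptide precursor, had 454, 1103 and 504 (Pair-Fed) against 1664, 1723 and 672 (RYGB-Fail), so that the third RYGB-Fail array lay inside the Pair-Fed range, and differed by 0.98 ± 0.40. Oxt, oxytocin, had 359.9, 2070.0 and 1664 (Pair-Fed) against 3974, 3424 and 1269 (RYGB-Fail). Its first Pair-Fed array was far below the others and the third RYGB-Fail array was below 2 of the Pair-Fed arrays, and the difference was 1.27 ± 0.60 (95% interval -0.03 to 2.56). Cck, the cholecystokinin gene, differed by 0.57 ± 0.32, and Crh, the corticotropin-releasing hormone gene, by 0.15 ± 0.31 (95% interval -0.51 to 0.82), from signals of 178, 212 and 125 (Pair-Fed) against 207, 206 and 151 (RYGB-Fail). Pomc, the precursor of melanocyte-stimulating hormone, was listed at 3.66 to 14.7 on the 6 arrays, far below the lowest signal tested, and no statement on it can be made. No probe set with a single symbol named Agrp. Ucn, Ucn2, Prlh, Gcg and Iapp were also under the lowest signal tested on all 6 arrays.

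Of the other hypothalamic peptides and their processing enzymes, 8 of 15 tested members were above 0, with a median of 0.02 that turned to -0.09 with arrays centred, and 1 gene did not overlap in each direction. Vip, vasoactive intestinal peptide of the suprachiasmatic nucleus, had 536, 391 and 576 (Pair-Fed) against 682, 799.6 and 769 (RYGB-Fail) and differed by 0.60 ± 0.23 (95% interval 0.10 to 1.10). Avp, vasopressin, had 485, 1410.4 and 1028 (Pair-Fed) against 2670.3, 1166 and 1902 (RYGB-Fail), with its first Pair-Fed array the lowest, and differed by 1.02 ± 0.48. Sst, somatostatin, differed by 0.23 ± 0.38 (95% interval -0.59 to 1.05). Pcsk2, a convertase that cuts peptide precursors, was the gene without overlap on the lower side, with 420.5, 349 and 409 (Pair-Fed) against 210.5, 308 and 314 (RYGB-Fail) and a difference of -0.52 ± 0.29. Pcsk1n, which inhibits another such convertase, differed by 0.47 ± 0.28.

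Receptors for these peptides and for hormones gave 16 of 23 tested members above 0, with a median of 0.12. Once the arrays were centred, 12 of 23 were above 0 with a median of 0.01, beside 38.3% and -0.08 over all probe sets. Adipor2, an adiponectin receptor, had 385, 396 and 256 (Pair-Fed) against 438, 599 and 695 (RYGB-Fail) and differed by 0.74 ± 0.29 without overlap. Galr1, a galanin receptor, had 48.0, 53.4 and 60.9 (Pair-Fed) against 132, 88.8 and 65.7 (RYGB-Fail), also without overlap, and differed by 0.77 ± 0.46 (95% interval -0.22 to 1.75). Cnr1, the cannabinoid receptor of neurons, had 2236, 1890.0 and 2074 (Pair-Fed) against 1126, 1267 and 2055 (RYGB-Fail) and differed by -0.53 ± 0.26, with the third RYGB-Fail array inside the Pair-Fed range. Igf1r, the receptor of insulin-like growth factor 1, differed by -0.35 ± 0.24, with 693, 673 and 732 (Pair-Fed) against 424, 618 and 633 (RYGB-Fail), and Insr, the insulin receptor, by 0.56 ± 0.42. The receptors of leptin, melanocortin and neuropeptide Y had 95% intervals that included 0. Lepr differed by -0.26 (95% interval -1.55 to 1.04), Mc4r by 0.01 (-1.18 to 1.20), Npy1r by 0.00 (-0.63 to 0.63) and Npy5r by 0.43 (-0.33 to 1.19). The 2 tested probe sets of Lepr disagreed in sign, at -0.26 and 0.69. Ghsr, the ghrelin receptor, had signals of 16.1 to 93.9 and a mean too low to be tested.

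Immediate early genes had lower signals in RYGB-Fail in 12 of 14 tested members, with a median of -0.51 against 0.03 over all probe sets, 3 of them without overlap, and none passed the test. Egr2 is described above. Egr1, a transcription factor of the same family, had 9879, 11033 and 12379 on the Pair-Fed arrays and 9426, 5017 and 7914 on the RYGB-Fail arrays. All RYGB-Fail arrays lay below all Pair-Fed arrays, the first only slightly, and the difference was -0.62 ± 0.24 (95% interval -1.14 to -0.09). Fos, the gene most used as a marker of active neurons, had 1112, 1105 and 1347 (Pair-Fed) against 1021, 1096 and 551 (RYGB-Fail), nearly touching, and differed by -0.47 ± 0.41 (95% interval -1.35 to 0.40). Nr4a3 and Nr4a1, nuclear receptors induced by activity, differed by -0.66 ± 0.30 and -0.84 ± 0.42, with overlap in both, from 3646, 2169.6 and 3506 (Pair-Fed) against 1762, 1422 and 2823 (RYGB-Fail) and from 231, 256 and 498 (Pair-Fed) against 288, 95.5 and 188 (RYGB-Fail). Fosb differed by -0.76 ± 0.42 and Egr4 by -0.56 ± 0.47. The differences of Dusp1, a phosphatase of MAP kinases, Ier2 and Jun were -0.13, -0.22 and -0.19, and Atf3, a stress-induced factor, was above 0 at 0.58 ± 0.61. The mean log2 signal of the list was 8.43, 8.46 and 8.60 (Pair-Fed) against 8.53, 7.63 and 8.08 (RYGB-Fail). The first RYGB-Fail array thus lay inside the Pair-Fed range by this measure. Summed signals did not overlap, at 27397 to 33730 on the Pair-Fed arrays and 17803 to 23924 on the RYGB-Fail arrays. Leaving out single arrays gave medians of -0.60 to -0.28. The value nearest 0 came without the second RYGB-Fail array, which had the lowest signals of the 6 arrays for Egr1, Egr2, Egr4, Nr4a3, Nr4a1 and Fosb.

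**Figure D3:**
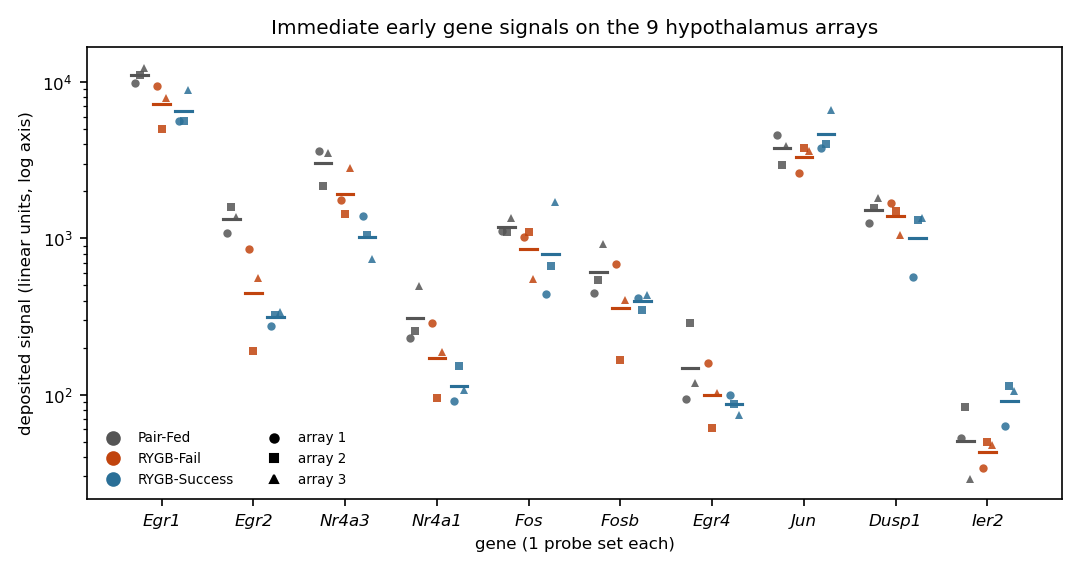
Deposited signal (log axis) of 10 immediate early genes on the 9 hypothalamus arrays, with 1 probe set a gene; horizontal bars are the group means of log2 signal and marker shapes are array numbers. RYGB-Fail arrays are below all Pair-Fed arrays for Egr1, Egr2 and Fos, and the second RYGB-Fail array, a square, is the lowest of these 6 arrays for 6 of the genes.

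The promoters of Egr1 and Egr2, the members of the immediate early gene list with the lowest p, are shown because each holds a CArG box, the site of serum response factor through which such genes are induced. The windows run from 250 bases before to 50 after the start in RefSeq's GRCr8 assembly, at chr18:26736828-26737127 on the plus strand for Egr1 and chr20:21054392-21054691 on the minus strand for Egr2. Capitals mark the CArG boxes, 2 in Egr1 and 1 in Egr2, searched on both strands.
Egr1: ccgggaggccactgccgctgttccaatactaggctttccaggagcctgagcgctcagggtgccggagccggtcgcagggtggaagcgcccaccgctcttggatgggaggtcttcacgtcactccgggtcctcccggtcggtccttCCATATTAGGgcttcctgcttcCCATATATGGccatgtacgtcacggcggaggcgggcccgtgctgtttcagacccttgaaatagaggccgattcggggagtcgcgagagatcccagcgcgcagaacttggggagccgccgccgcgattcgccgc
Egr2: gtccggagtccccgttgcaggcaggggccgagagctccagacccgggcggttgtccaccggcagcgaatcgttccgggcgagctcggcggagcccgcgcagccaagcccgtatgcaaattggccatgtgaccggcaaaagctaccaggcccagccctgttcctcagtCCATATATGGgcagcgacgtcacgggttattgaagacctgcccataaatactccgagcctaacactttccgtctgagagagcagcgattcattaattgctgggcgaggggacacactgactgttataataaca
Of all 33469 promoters in the table, 548 (1.637%) hold a CArG box, against 2 of the 12 immediate early gene promoters listed there. The cAMP response element TGACGTCA is in 612 of all promoters (1.829%) and in those of Dusp1 and Ier2. Neither motif was found only in immediate early genes. The cAMP response element was in 2 of 16 promoters of peptides that lower feeding and 2 of 13 of the other hypothalamic peptides. It was in 0 of 8 promoters of peptides that raise feeding. Of the peptide promoters, only that of Npvf held a CArG box. A match describes the letters of the window and does not show binding, and sites outside the window or with other letters were not counted.

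Glutamate receptors and their scaffolds had 17 of 27 tested members below 0, with a median of -0.11 and 5 without overlap, all lower. The second RYGB-Fail array had the lowest summed signal of the list, at 52344 against 61492 or more on the other arrays of these groups. The part of the regional markers described below in these differences was not tested. Shank2, a scaffold of the postsynaptic density, had 1948, 2012 and 1816 (Pair-Fed) against 1469, 1014 and 1436 (RYGB-Fail) and differed by -0.58 ± 0.21 (95% interval -1.03 to -0.13). Gria3, an AMPA receptor subunit, differed by -0.40 ± 0.20 on its brightest probe set and by -1.39 on the other. Camk2b, a calcium-dependent kinase of synapses, had 13852, 14411 and 14468 (Pair-Fed) against 13432, 9224 and 10136 (RYGB-Fail), without overlap, and differed by -0.40 ± 0.24, and Gria2 differed by -0.28 ± 0.18.

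Markers of cortex, hippocampus and striatum had mostly lower signals in RYGB-Fail, those of thalamus and habenula did not, and none passed the test. Of 10 tested markers of cortex and hippocampus, 9 were below 0, with a median of -0.33 and summed signals of 7129 to 10561 on the Pair-Fed arrays and 5448 to 9003 on the RYGB-Fail arrays. The median was -0.12 with array weights, and with single arrays left out it ran from -0.73, without the third RYGB-Fail array, to -0.05, without the second. All 10 markers of striatum were below 0, with a median of -0.42. Their summed signals were 16275, 27276 and 21311 on the Pair-Fed arrays and 28436, 6472 and 21879 on the RYGB-Fail arrays. The striatal difference thus lay in the second RYGB-Fail array, and without it the median was 0.26. Of 10 tested markers of thalamus and habenula, 6 were above 0, with a median of 0.07 that turned to -0.04 with arrays centred. Drd1, the dopamine receptor of striatal projection neurons, was 399.8 on that array and 1577, 3229.8 and 1810.2 on the Pair-Fed arrays. Adora2a, the adenosine receptor of the other projection neurons, was 101 there, against 823, 891 and 665. Slc17a7, a vesicular glutamate transporter of cortex, had 1107, 317 and 1197 (Pair-Fed) against 353, 451 and 468 (RYGB-Fail) and a difference of -0.83 ± 0.42, and Neurod2, a transcription factor of cortical neurons, differed by -0.88 ± 0.62. Fezf2, a factor of deep-layer cortical neurons, had 134, 137 and 219.6 (Pair-Fed) against 4.97, 49.8 and 129 (RYGB-Fail). Its groups did not overlap, and the difference of -2.33 ± 0.99 was 2.24-fold with arrays under the lowest signal tested held at it. The second RYGB-Fail array was therefore the lowest of the 6 in the summed signal of both regional lists and of the immediate early genes, where it had 17803 against 23196 or more, and the part of the regional markers in the immediate early gene differences was not tested.

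Genes of the choroid plexus, the tissue that makes cerebrospinal fluid, had higher signals in RYGB-Fail in all 10 members tested, with a median of 0.65, of which 7 did not overlap and 5 had an unadjusted p under 0.05. None passed after adjustment. Ttr, transthyretin, which carries thyroid hormone, had 10858, 13420.5 and 8234 on the Pair-Fed arrays and 18688, 14310.1 and 15022 on the RYGB-Fail arrays. The highest Pair-Fed array was just below the lowest RYGB-Fail array, and the difference was 0.58 ± 0.21 (95% interval 0.13 to 1.04). Sostdc1, a secreted inhibitor of BMP and Wnt signals, had 1489, 1693 and 877 (Pair-Fed) against 2974, 2227 and 2106 (RYGB-Fail) and differed by 0.89 ± 0.28. Folr1, the folate receptor of this tissue, had 73.2, 52.9 and 17.0 (Pair-Fed) against 86.1, 129 and 115 (RYGB-Fail) and differed by 1.43 ± 0.58, with the third Pair-Fed array far below the rest. Its Pair-Fed mean lay under the lowest mean signal tested, and the fold was 2.69, or 1.84 with arrays under that signal held at it. Steap1 differed by 0.81 ± 0.33, the water channel Aqp1 by 0.82 ± 0.39 and the transcription factor Otx2 by 0.66 ± 0.29. The summed signal of the list was 15955 to 24314 on the Pair-Fed arrays and 26873 to 34062 on the RYGB-Fail arrays, and the median stayed between 0.45 and 0.81 when single arrays were left out and was 0.54 with arrays centred.

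The ependyma, the ciliated lining of the ventricles, gave 6 of 7 tested markers above 0, with a median of 0.44. Cfap126, a protein of cilia, had 112, 118 and 80.6 (Pair-Fed) against 255, 279.9 and 179 (RYGB-Fail) and differed by 1.20 ± 0.36 without overlap. Foxj1, the master factor of motile cilia, differed by 0.93 ± 0.51, with overlap, from 38.7, 64.4 and 23.2 (Pair-Fed) against 73.4, 63.2 and 85.7 (RYGB-Fail). Here too the Pair-Fed mean lay under the lowest mean signal tested, and the fold was 1.90, or 1.30 with arrays held at that signal. Dynlrb2 and Rarres2 differed by 0.47 ± 0.30 and 0.31 ± 0.23. Leaving out single arrays gave medians of 0.15 to 0.65, lowest without the first RYGB-Fail array, whose summed signal of 4614 was the highest of the 6. The choroid plexus and ependyma markers were higher in the same group as Hcrt, Pmch, Mfrp and Kcne2, and their part in those differences was not tested.

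Markers of microglia, the resident macrophages of the brain, had higher signals in all 13 members tested, with a median of 0.44, of which 9 did not overlap and 4 had an unadjusted p under 0.05. With arrays centred, 11 of 13 remained above 0 and the median was 0.33. C1qa, a chain of complement component C1q, had 263, 302 and 263 on the Pair-Fed arrays and 558, 454 and 405 on the RYGB-Fail arrays. The lowest RYGB-Fail array was above the highest Pair-Fed array, and the difference was 0.77 ± 0.24 (95% interval 0.24 to 1.29). Tyrobp, an adaptor of microglial receptors, had 162, 160.0 and 178 (Pair-Fed) against 300.4, 303 and 233 (RYGB-Fail) and differed by 0.73 ± 0.30. Ptprc, the pan-leukocyte antigen CD45, had 141, 92.2 and 92.9 (Pair-Fed) against 179, 227 and 196 (RYGB-Fail) and differed by 0.91 ± 0.34. Laptm5, a lysosomal protein of blood-derived cells, differed by 0.78 ± 0.31, although its other tested probe set gave -0.21. P2ry12, a receptor found on resting microglia, differed by 0.44 ± 0.24 and Trem2 by 0.67 ± 0.37. Summed signals of the list were 12953 to 13912 on the Pair-Fed arrays and 14691 to 18318 on the RYGB-Fail arrays.

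All 7 tested markers of blood leukocytes, of which Ptprc is also on the microglial list, were above 0, with a median of 0.57 and a range of 0.16 to 0.77 over single arrays left out. Lyz2, lysozyme, had 683, 837 and 635 (Pair-Fed) against 1071, 1276 and 859.5 (RYGB-Fail) and differed by 0.57 ± 0.24. Cd74, the invariant chain of MHC class II, differed by 0.44 ± 0.30, and Cd3e, a T cell receptor chain, by 0.57 ± 0.54. The B and T cell genes Cd79b, Ms4a1 and Cd3g were under the lowest signal tested on all 6 arrays. Genes induced by interferon gave 10 of 14 members above 0, a median of 0.23 and 5 without overlap, all higher. Ifitm3, which blocks virus entry, had 241, 150.1 and 268 (Pair-Fed) against 331, 598 and 284 (RYGB-Fail) and differed by 0.85 ± 0.32. Usp18, which dampens interferon signalling, had 103, 113 and 126 (Pair-Fed) against 179.9, 207 and 195 (RYGB-Fail) and differed by 0.77 ± 0.34, and Ifit2 differed by 0.85 ± 0.42. Cytokine and chemokine genes gave 11 of 14 above 0 and a median of 0.16 (9 of 14 and 0.04 with arrays centred), with Ccl6, a chemokine of myeloid cells, at 60.2, 92.2 and 102 (Pair-Fed) against 169, 235 and 124 (RYGB-Fail) and a difference of 1.04 ± 0.39. Il1b, Il6, Ccl2, Ccl3, Cxcl1 and Lcn2 were under the lowest signal tested on all 6 arrays.

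**Figure D4:**
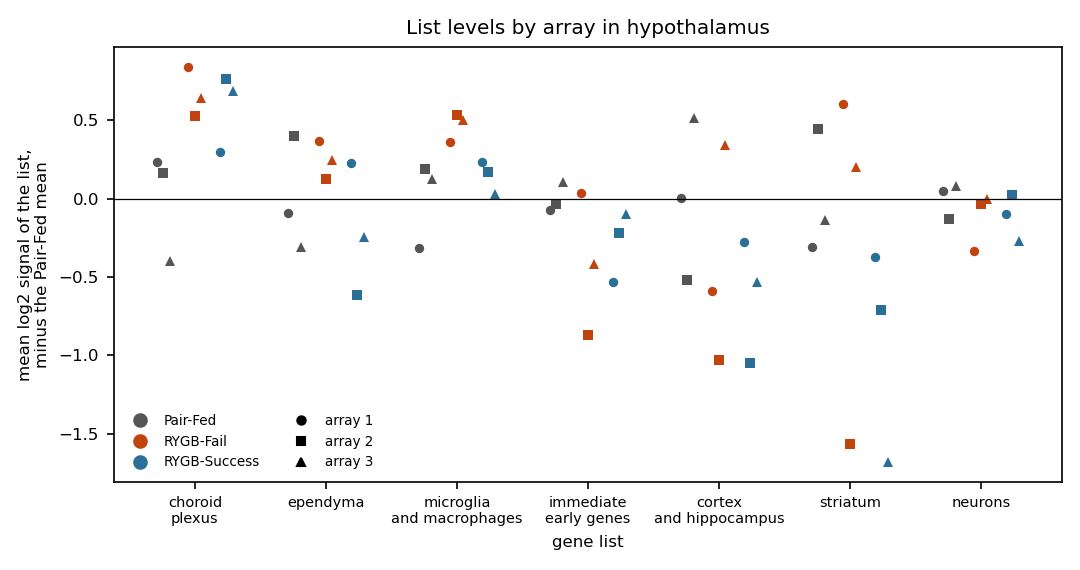
Mean log2 signal of the members on the array of 7 gene lists on each of the 9 hypothalamus arrays, minus the mean of the 3 Pair-Fed arrays; colours are groups and marker shapes are array numbers. For choroid plexus and microglia all 3 RYGB-Fail arrays are above all Pair-Fed arrays, and in striatum the second RYGB-Fail array is far below the other RYGB-Fail arrays.

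Subunits of the mitochondrial respiratory chain were above 0 in 47 of 54 members, with a median of 0.16 and 11 without overlap. With arrays centred, 35 of 54 were above 0 and the median was 0.05, beside 38.3% and -0.08 over all probe sets. After quantile normalization 49 of 54 were above 0 and the median was 0.22, beside 49.4% over all probe sets. Cox6b1, a subunit of cytochrome c oxidase, had 2449, 3519 and 3669.6 (Pair-Fed) against 3632, 5357 and 5099 (RYGB-Fail) and differed by 0.55 ± 0.22, and Ndufb6, a subunit of complex I, had 1359, 1451 and 1520.5 (Pair-Fed) against 1834, 2094 and 1844 (RYGB-Fail) and differed by 0.41 ± 0.22. Uqcrh, of complex III, differed by 0.35 ± 0.18. Markers of neurons gave 3 of 11 above 0 and a median of -0.07 (6 of 11 above 0 after quantile normalization), of astrocytes 5 of 13 and -0.05, of oligodendrocytes and myelin 8 of 15 and 0.04, and of endothelium and pericytes 3 of 13 and -0.20. The median of oligodendrocytes turned to -0.08 with arrays centred and that of astrocytes to 0.04 after quantile normalization. With single arrays left out, that of endothelium and pericytes ran from -0.36 to 0.05, highest without the first RYGB-Fail array.

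**Figure D5:**
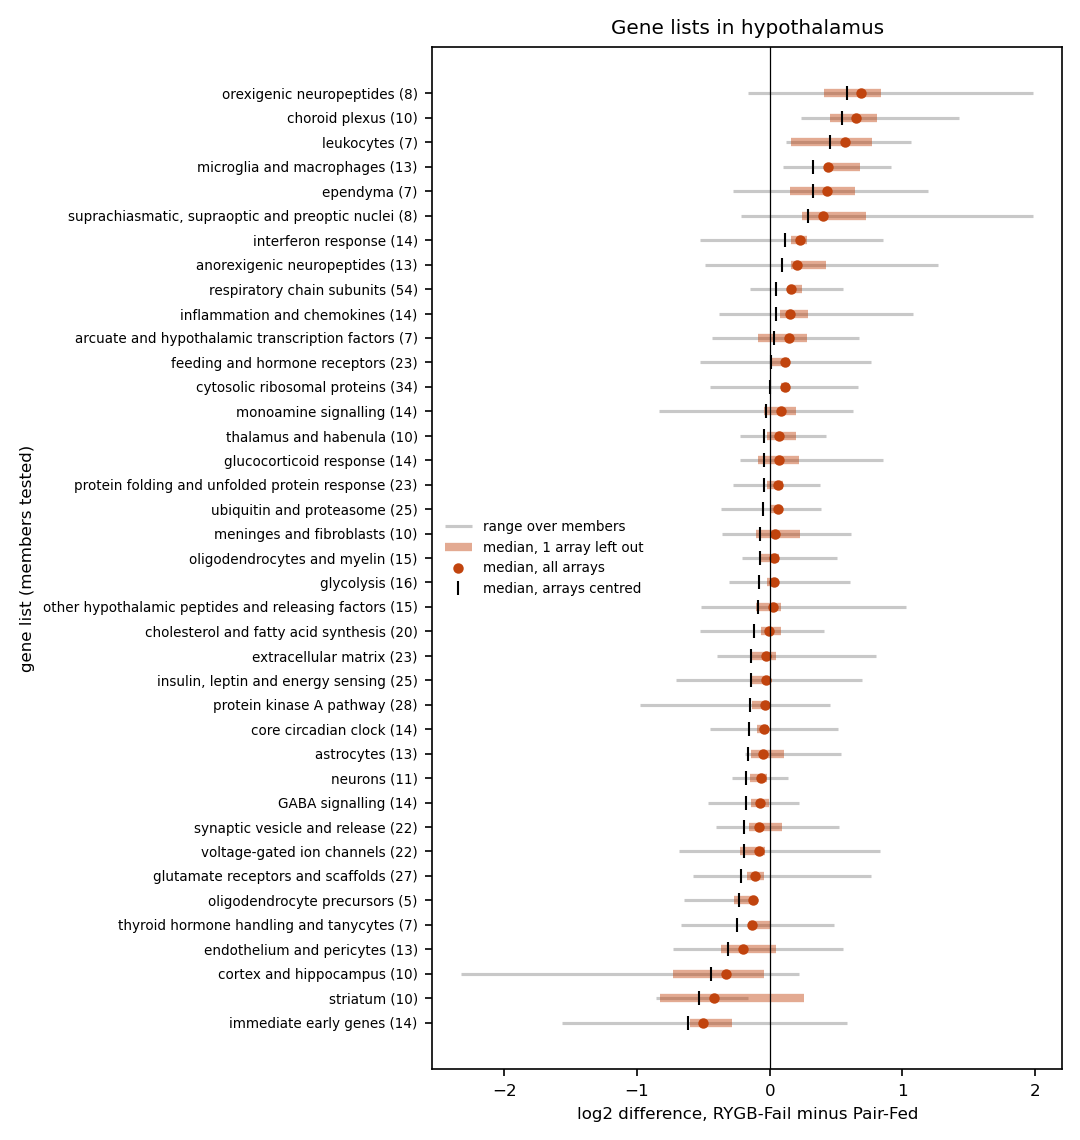
Median log2 difference between RYGB-Fail and Pair-Fed of each gene list with 5 or more tested members (points), with the range over members (grey), the range of medians with single arrays left out (orange) and the median after centring each array (black bars). Orexigenic peptides and choroid plexus have the highest medians, 0.69 and 0.65, and immediate early genes the lowest, -0.51; the striatum range crosses 0.

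The difference of the RYGB-Fail group from RYGB-Success, which has the same contrast as the difference between their separate comparisons with Pair-Fed, was tested directly, since those 2 comparisons share the Pair-Fed arrays. In this test 1 of 18625 probe sets passed (0.00537%), and 1120 had an unadjusted p under 0.05. It was Pkig, an inhibitor of protein kinase A, chosen for mention after its value was seen. Its signals were 8352, 10095 and 9359.6 on the Pair-Fed arrays and 8261, 7193 and 7655 on the RYGB-Fail arrays, and 1986, 3074 and 1734 on the RYGB-Success arrays. RYGB-Fail exceeded RYGB-Success by 1.81 ± 0.21 log2 (limma, adjusted p = 0.0116), while RYGB-Fail differed from Pair-Fed by -0.26 ± 0.21 (95% interval -0.72 to 0.19). The adjusted p was above the threshold when any RYGB-Fail array was left out, at 0.0789 to 0.135, without the trend, at 0.592, and with only the 6 arrays compared, at 0.0798. For Hcrt, with 644, 271 and 657 on the RYGB-Success arrays, RYGB-Fail minus RYGB-Success was -1.14 ± 0.49 (95% interval -2.20 to -0.08, limma, adjusted p = 0.784). For Pmch it was -0.77 ± 0.34, from 10581, 9914 and 20005 on the RYGB-Success arrays, for Npvf -0.85 ± 0.33 and for Egr2 0.53 ± 0.41, with adjusted p of 0.784 to 0.801. The choroid plexus list had a median of -0.01 in this contrast and the immediate early list 0.12.

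The same comparison in fat was set against the hypothalamus in an interaction test over the 15531 probe sets tested in both tissues. None passed (0.0%), 466 had an unadjusted p under 0.05, and with array weights 12 passed. This fit took all 18 arrays as independent. The sample titles do not say whether fat and hypothalamus came from the same rats, so any such pairing was not used. In fat the third RYGB-Fail array stood apart, with a median signal of 288, the highest of the 9 fat arrays. Ccl6 differed by 1.04 in hypothalamus and -1.07 in fat, and Ifitm3 by 0.85 and -0.43. Microglial and macrophage markers had a median of 0.44 in hypothalamus and -0.40 in fat over the 12 members tested there, a difference that was not tested for the list.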

How the data were processed

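Signals of 9 hypothalamus arrays from 3 groups of rats were used, with 3 arrays a group, and the groups were taken from the sample titles. Per the labels' protocols, RNA was extracted with Qiagen RNeasy and labelled with NuGEN WT Ovation. Each deposited value is a probe set's intensity on a linear scale. The submitters' processing notes name MAS5 and GCOS, whose versions and settings are not given in the sources used here. The trimmed mean was about 500.2 on each array, so the authors' values had been scaled to a common mean. Array control probe sets (57 of 31099) were left out. Of the rest, 20826 had 1 gene symbol, 436 several and 9780 none, and 20758 matched a RefSeq gene (GRCr8). Probe sets with several symbols were not named.

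Values were taken as log2 with no pseudocount, and the upper 60% by mean log2 signal over the 9 arrays (18625 probe sets, 10438 named genes, mean signal of at least 52.7) were tested with limma 3.58.1 in R 4.3.3 (lmFit, eBayes with trend) over all 9 arrays. P-values were 2-sided and adjusted by Benjamini-Hochberg with a threshold of 0.05. Intervals are 95% intervals of the fit. Fold changes are on the log2 scale of signals, which scatter at the low end. The number of arrays limits the precision. The fitting step was also run on simulated arrays with the means and spread of these arrays and added differences, whose recovery is not given here. Tables were made in Python 3.11.15 with pandas 2.3.3, and plots with matplotlib 3.10.9.

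Each gene of a list was represented by its brightest probe set, and lists are described by counts and medians with no set test. The members and lists, 43 with 876 genes written, were chosen with earlier results of these data known. Genes named are the 12 lowest unadjusted p in each direction among non-overlapping groups with 1 symbol and a fold of at least 1.5 (no probe set passed), the lowest p members of each described list (4 at most), and fixed hypothalamic genes; a few other list members are given as examples. The alternatives were a pseudocount of 10% of the mean signal, no filter, an upper 40% filter, quantile normalization, median centring, array weights, a replicate block, no trend, a fit of only the 6 arrays, each RYGB-Fail and Pair-Fed array left out and, chosen after seeing the data, the third RYGB-Success array left out.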

Additional observations from a re-analysis of the deposited data

Results flagged for a closer look

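Pkig, which encodes an inhibitor of protein kinase A, differed between the regaining and the losing rats in their comparison with Pair-Fed. RYGB-Fail minus Pair-Fed was -0.26 ± 0.21 log2 and RYGB-Success minus Pair-Fed -2.07 ± 0.21, and the test of the difference itself gave 1.81 (95% interval 1.36 to 2.26, limma, adjusted p = 0.0116). The RYGB-Success arrays lay at 1986, 3074 and 1734 and all RYGB-Fail and Pair-Fed arrays at 7193 or more. No other probe set passed this test. With any 1 RYGB-Fail array left out the difference was 1.76 to 1.86 and the adjusted p 0.0789 to 0.135. The adjusted p was also above the threshold without the trend, at 0.592, and with only the 6 arrays compared, at 0.0798, with the same difference of 1.81.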

How the results depend on the processing

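For RYGB-Fail against Pair-Fed, 0 probe sets passed in either direction under every alternative run. The lowest adjusted p ran from 0.348, without the second Pair-Fed array, to 1.00, and was 0.647 with array weights. At an unadjusted p under 0.05 the counts were 951 higher and 384 lower with array weights, 702 and 331 with no filter and 430 and 220 with only the 6 arrays. The sample titles number the replicates and do not say whether arrays with equal numbers belong together. Deviations from the group mean of same-numbered Pair-Fed and RYGB-Fail arrays correlated at -0.16, -0.11 and 0.07. The first Pair-Fed array correlated best with the second RYGB-Fail array, at 0.21. With 3 arrays a group, these correlations cannot decide whether the arrays were paired. With the replicate block 0 passed, with 296 higher and 102 lower at an unadjusted p under 0.05.

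The count passing between RYGB-Fail and RYGB-Success was 1. It was 2 with the pseudocount, no filter, quantile normalization, median centring and the replicate block, 6 with array weights, 0 without the trend and with only the 6 arrays, and 0 to 2 with single arrays left out. The interaction with fat gave 12 with array weights and 0 with the pseudocount, the upper 40%, quantile normalization, centring, the replicate block and each hypothalamus RYGB-Fail or Pair-Fed array left out, the cause of which was not tested.

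Single genes that changed sign did so within their intervals. Npy was -0.036 with centring and ran from -0.19 to 0.35 with single arrays left out (-0.13 without the third RYGB-Fail array). Crh was -0.037 with array weights and ran from -0.060 to 0.32, and Sst from -0.19 to 0.57. Mc4r was -0.0088 with the pseudocount, -0.017 with quantile normalization, -0.10 with centring and -0.12 with array weights, and ran from -0.56 to 0.45 (-0.43 without the first RYGB-Fail array). Npy1r was -0.033 with quantile normalization, -0.11 with centring and -0.10 with array weights, and ran from -0.23 to 0.13 (-0.14 without the third Pair-Fed array). The highest value came without the second RYGB-Fail array for Lepr (-0.43 to 0.029), Lamp5 (-0.72 to 0.014), Adora2a (-1.59 to 0.20), Pde10a (-0.71 to 0.037) and Ppp1r1b (-1.14 to 0.31). Of the 43 list medians, 9 changed sign with centring, 4 with quantile normalization and 17 on leaving out an array.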
